A study of Mus musculus with 27 samples.

Results

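The genes described here are 40 that build and control the mitotic spindle: kinases and cyclins of mitotic entry, the spindle checkpoint, the anaphase-promoting complex with its targets, the chromosomal passenger complex, the kinetochore, the kinesin motors and spindle assembly factors. They were listed by symbol and role, and no measured value enters the list, although it was drawn up with earlier results of these data known. Each gene was read from its brightest probe set, the one with the highest mean signal over all arrays. Of the 40, 39 had a probe set annotated to a single symbol, among 18193 such genes on the array; cyclin B1 (Ccnb1) had none listed and has no value. After the 40% of genes with the lowest mean signal were left out, 38 of the 40 were among the 10916 genes tested. The kinesin Kif15 was the one left out, at signals of 3.0 to 77.2 on every array.

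The series held 27 Affymetrix arrays of 45037 probe sets, each read as a signal intensity on a linear scale, for untreated mouse fetal liver cells from embryonic day 14.5, in which most cells are red cell precursors. Total RNA was taken from fresh cells (0 h) or after 24 h or 48 h in a serum-rich medium. The wild type (WT) had 3, 2 and 2 arrays at 0 h, 24 h and 48 h. Cells with a knockout of p107, the product of Rbl1 (p107KO), had 2, 2 and 1. Cells with a knockout of Rb1 (Rb1KO) had 5, 4 and 2, and cells lacking both genes (DKO) had 2, 1 and 1. Strain, the altered part of each gene and the number of embryos behind a group are not given in the labels. The p-values therefore measure the spread between arrays, which may be technical, and a group of 1 array is assumed to vary like the others.

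As background, a cell that enters mitosis activates cyclin-dependent kinase 1, condenses and captures its chromosomes through kinetochores, and holds anaphase back with the spindle checkpoint until every chromosome is attached. The genes for these steps are transcribed together late in the cell cycle. Many carry a CHR element (cell cycle genes homology region) close to the start site, often with CCAAT boxes upstream that bind NF-Y. In resting cells the DREAM complex, which joins a MuvB core to p107 or its relative p130 and to E2F4, represses genes through the CHR. In dividing cells MuvB works instead with B-MYB and FOXM1. The product of Rb1 acts mainly through E2F sites of genes for the G1/S transition. Fetal liver erythroblasts divide rapidly and then leave the cell cycle as they mature.

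Promoter windows from 250 bases before to 50 after the annotated start were available from RefSeq (GRCm38.p6) for 34 of the 40 genes. They were searched on both strands for the CHR (TTTGAA or TTCGAA), for CCAAT, and for 4 E2F-type octamers (TTTCCCGC, TTTGGCGC, TTTCGCGC and TTTGCCGC). The CHR letters lay within 50 bases of the start in 22 of 34 mitotic genes (64.7%), against 3.5% of the first promoters of 8922 tested genes and 5.31% of all 32851 promoters in the table. At least 2 CCAAT matches together with a CHR match anywhere in the window were found in 16 of 34 (47.1%), against 2.31% of all promoters. The E2F-type letters were in 3 of 34 (8.82%: Cdk1, Kif15 and Kif18a), against 4.49% of the first promoters of tested genes. Of 32 G1/S genes examined the same way, 2 (6.25%) had the CHR letters near the start and 11 (34.4%) had E2F-type letters in the window. A letter match is a description and does not show that a factor binds there.

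The 8 windows below run from 120 bases before to 30 after the start, 5′ to 3′ on the gene's own strand, with matches in capitals: capitals of 6 letters mark a CHR on either strand, and capitals of 5 letters mark CCAAT or its complement ATTGG. The first 5 belong to genes that were higher in Rb1KO: Cdk1 (chr10:69352883-69353032, minus strand), Kif11 (chr19:37376262-37376411, plus), Kif4 (chrX:100625945-100626094, plus), Spc25 (chr2:69206184-69206333, minus) and Top2a (chr11:99024160-99024309, minus). Cdc20 (chr4:118437314-118437463, minus) and Ube2c (chr2:164769809-164769958, plus) hold the same letters in a like arrangement and did not pass the test for Rb1KO against WT. Nusap1 (chr2:119618178-119618327, plus) holds neither motif in this window and passed it. The 8 genes are examples picked with their values known.
Cdk1: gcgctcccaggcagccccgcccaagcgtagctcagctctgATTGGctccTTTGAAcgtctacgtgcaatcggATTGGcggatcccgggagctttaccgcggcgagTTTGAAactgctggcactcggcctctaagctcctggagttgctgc
Kif11: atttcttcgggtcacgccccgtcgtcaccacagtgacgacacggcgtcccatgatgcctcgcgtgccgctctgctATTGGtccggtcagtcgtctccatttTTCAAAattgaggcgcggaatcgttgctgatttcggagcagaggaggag
Kif4: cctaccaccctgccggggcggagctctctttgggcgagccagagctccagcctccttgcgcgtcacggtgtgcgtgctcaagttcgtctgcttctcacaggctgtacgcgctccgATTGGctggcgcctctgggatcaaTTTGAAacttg
Spc25: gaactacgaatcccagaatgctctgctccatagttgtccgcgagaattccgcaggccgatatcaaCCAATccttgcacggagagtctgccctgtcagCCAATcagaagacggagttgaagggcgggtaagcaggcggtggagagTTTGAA
Top2a: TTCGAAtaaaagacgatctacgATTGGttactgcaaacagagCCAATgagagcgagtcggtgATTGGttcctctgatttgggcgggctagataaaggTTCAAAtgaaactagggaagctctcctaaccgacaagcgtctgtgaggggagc
Cdc20: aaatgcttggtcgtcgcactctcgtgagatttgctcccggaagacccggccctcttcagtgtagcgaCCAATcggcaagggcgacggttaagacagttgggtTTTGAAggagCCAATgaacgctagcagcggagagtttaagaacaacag
Ube2c: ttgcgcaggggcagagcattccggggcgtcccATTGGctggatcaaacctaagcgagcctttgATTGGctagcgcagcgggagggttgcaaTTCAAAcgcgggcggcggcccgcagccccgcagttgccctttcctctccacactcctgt
Nusap1: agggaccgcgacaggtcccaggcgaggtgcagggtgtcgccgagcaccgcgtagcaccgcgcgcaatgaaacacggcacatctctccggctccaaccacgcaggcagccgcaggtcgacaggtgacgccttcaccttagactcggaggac

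**Figure D1:**
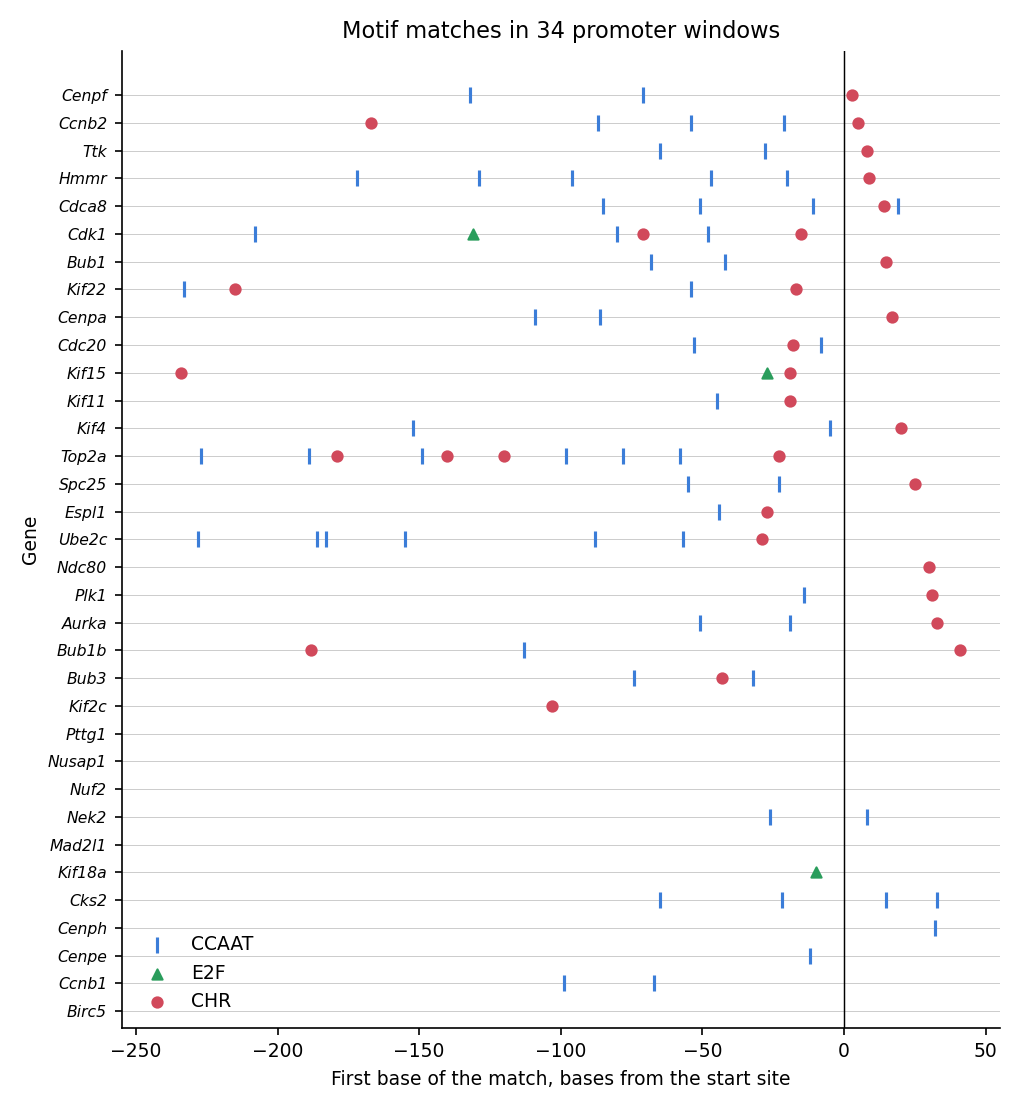
Positions of the CHR (red points), CCAAT (blue bars) and E2F-type matches (green triangles) in the promoter windows of 34 mitotic genes; the x axis is the distance in bases from the annotated start (line at 0). In 22 of the 34 genes a CHR match lies within 50 bases of the start, and CCAAT matches stand mostly upstream of it.

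The targeted genes were read first. Rbl1 signal was 1619 ± 110.5 (SD, n = 3) in fresh WT, 112.8 ± 6.01 (n = 2) in p107KO and 85.9 ± 1.98 (n = 2) in DKO, and it was at most 167.5 in the p107KO and DKO arrays at all 3 times. In Rb1KO it was higher than in WT over the 3 times (log2 0.56 ± 0.14, adjusted p = 0.0052 in limma). Rb1 signal was 6609 ± 481.5 (n = 3) in fresh WT against 2109 ± 481.4 (n = 5) in Rb1KO and 1520 ± 201.7 (n = 2) in DKO, and at 24 h it was 9449 in WT against 3703 ± 849.4 (n = 4) in Rb1KO and 4600 in the DKO array. At 48 h it was 5746 and 6583 in the WT arrays, 4207 and 5453 in the arrays labelled Rb1KO and 5994 in the array labelled DKO, so the Rb1 probe set does not check those labels. The counts over the 3 times for Rb1KO against WT and for DKO against p107KO are therefore given with and without the 48 h arrays. Among the 0 h and 24 h arrays, Rb1KO replicate 5 at 0 h and replicate 1 of p107KO, Rb1KO and DKO at 24 h had the 4 lowest correlations with the other arrays of their time. The Y-linked gene Eif2s3y had a signal over 300 in no WT array (of 7), 2 of the 5 for p107KO, 3 of the 11 for Rb1KO and each of the 4 for DKO, and at 48 h in neither WT array and in 1 of the 2 Rb1KO arrays.

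Markers of the cell types in the tissue changed in culture. The summed signal of 9 erythroid markers averaged 161868 in fresh WT, 262541 at 24 h and 195812 at 48 h, so red cell RNA was present at all 3 times. The summed signal of 12 hepatoblast markers (Alb, Afp and others) fell from 220617–251800 in fresh WT to 7521 and 7677 at 24 h, and then stood at 43000 and 11022 in the WT arrays at 48 h, against 17320 and 4862 in Rb1KO and 3453 in DKO. Of the erythroid markers, 5 of 9 rose and 1 fell from 0 h to 24 h in WT (median log2 0.59), 7 rose and 1 fell in Rb1KO (median 0.52), and all 9 had lower values at 48 h than at 24 h in WT (median -0.31, 3 passing). All 7 tested megakaryocyte markers and 6 of 11 macrophage markers rose from 24 h to 48 h in WT, and 7 of 7 and 9 of 11 in Rb1KO. In RNA from a mixed tissue, fewer dividing cells and less mitotic mRNA per cell cannot be told apart.

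Over the 3 times together, 19 of the 38 mitotic genes passed as higher in Rb1KO than in WT and none as lower. Over all genes tested 10.4% passed as higher and 8.66% as lower. The count was smaller without the 48 h arrays, as given below. On each array, the mean of log2(signal + 32) over the 38 genes was 11.69 to 11.85 in fresh WT and 11.88 to 12.12 in fresh Rb1KO, 12.11 and 12.23 against 12.35 to 12.56 at 24 h, and 11.17 and 11.26 against 11.78 and 11.93 at 48 h. At each time every Rb1KO array therefore lay above every WT array, and the gap was widest at 48 h. DKO arrays lay at 11.89 and 11.92, then 12.58 and 12.23. The p107KO arrays lay at 11.69 and 11.83, then 12.08 and 12.09, and 11.44 at 48 h, within or near the WT range at the first 2 times and above both WT arrays at the last.

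**Figure D2:**
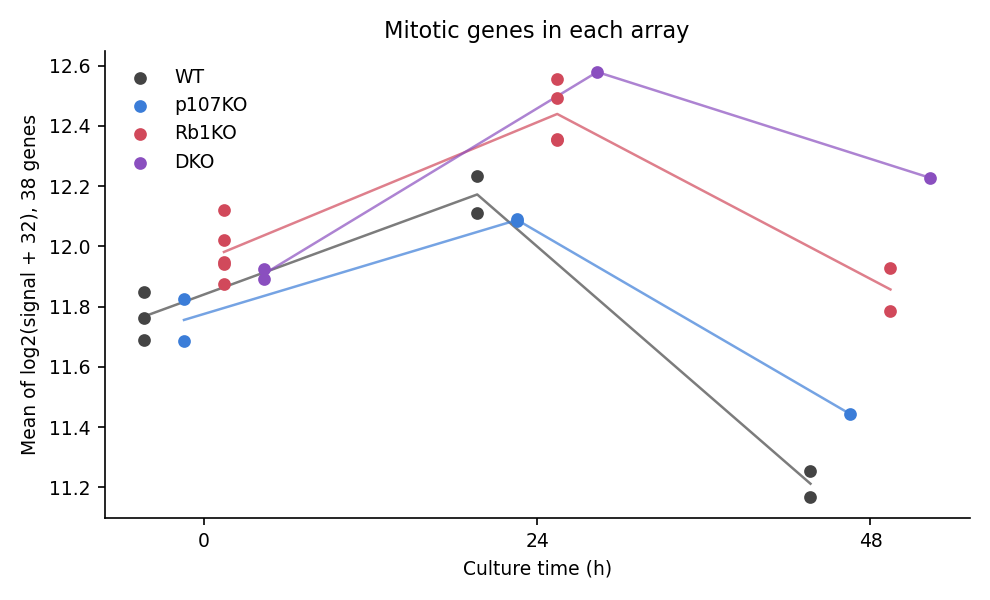
Mean of log2(signal + 32) over 38 mitotic genes (y axis, log2 scale) against hours of culture (x axis); each point is an array, coloured by genotype and set side by side at its time, and lines join group means. WT ends at 11.17 and 11.26 at 48 h, below its fresh level, whereas the arrays labelled Rb1KO are at 11.78 and 11.93 and the array labelled DKO at 12.23.

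Averaged over the 3 times, 19 of 38 mitotic genes passed the test as higher in Rb1KO than in WT and none as lower (limma, Benjamini-Hochberg adjusted p under 0.05 over all 10916 genes). Over all genes tested, 19% passed in either direction, 10.4% as higher and 8.66% as lower. The median log2 change was 0.31 for the mitotic genes and -0.07 for all genes, and 36 of 38 were positive. Without the 48 h arrays the count was 4 (Cdk1, Ndc80, Nusap1 and Tpx2), against 6.38% of all genes, and with Y-positive arrays (Eif2s3y over 300) left out it was 10. The same 4 genes were the only ones of the 19 to pass under each of the 31 other settings tried for this comparison.

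By role, 5 of 8 tested genes of mitotic entry rose: Cdk1, the kinase of mitotic entry, by a log2 change of 0.65 ± 0.08 (SE), the centrosomal kinase gene Aurka by 0.45 ± 0.08, the transcription factor gene Foxm1 by 0.55 ± 0.19, the phosphatase gene Cdc25c by 0.38 ± 0.09 and the cyclin gene Ccnb2 by 0.30 ± 0.08. Of 4 spindle assembly and chromosome structure genes, 3 rose: Tpx2, which activates Aurora A on the spindle, by 0.72 ± 0.07, Nusap1, a microtubule-bundling protein, by 0.80 ± 0.12, and the topoisomerase gene Top2a by 0.48 ± 0.09. Of 8 kinetochore and centromere genes 4 rose, led by the outer kinetochore subunit gene Ndc80 (1.18 ± 0.20), with Cenpf at 0.65 ± 0.22, Spc25, of the same complex as Ndc80, at 0.62 ± 0.14 and the centromeric histone gene Cenpa at 0.33 ± 0.08. Kinesins were 3 of 5 tested: Kif18a (0.86 ± 0.22), Kif11, which pushes the spindle poles apart (0.69 ± 0.12), and Kif4 (0.55 ± 0.15). The checkpoint gave 2 of 5, Bub1b (0.38 ± 0.10) and Bub3 (0.28 ± 0.08), and the passenger complex 2 of 4, Birc5, which encodes survivin (0.44 ± 0.08), and Aurkb (0.34 ± 0.10).

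The group for anaphase and sister chromatid separation gave 0 of 4, also at an unadjusted p under 0.05. Cdc20, the activator of the anaphase-promoting complex, had a log2 change of 0.10 with a 95% interval of -0.06 to 0.26; the ubiquitin-conjugating enzyme gene Ube2c was at 0.22 (-0.06 to 0.50), securin (Pttg1) at 0.27 (-0.02 to 0.56) and separase (Espl1) at 0.19 (-0.04 to 0.42). Polo-like kinase 1 (Plk1) was at 0.02 (-0.26 to 0.30) and the inner centromere protein gene Incenp at -0.01 (-0.25 to 0.24). Whether these genes respond less than the 19 was not tested, since a missed threshold does not show a smaller change.

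Another 6 of the 38 had an unadjusted p under 0.05 and did not pass after adjustment. The nearest to the threshold were Spc24, a partner of Spc25 in the NDC80 complex (log2 0.22 ± 0.08, adjusted p = 0.0521 in limma), and Hmmr (0.34 ± 0.12, adjusted p = 0.0526). On the inner side of the threshold Foxm1 had an adjusted p of 0.0432 in limma and Cenpf one of 0.0385. The other 4 were the chromokinesin gene Kif22 (0.28), the Cdk subunit gene Cks2 (0.21), the centrosomal kinase gene Nek2 (0.18) and Kif2c (0.17). Changes of 0.16 to 0.42 with an unadjusted p above 0.05 were measured for Cenpe (0.42 ± 0.21), Nuf2, the partner of Ndc80 (0.29 ± 0.16), the checkpoint kinase genes Bub1 (0.20 ± 0.14) and Ttk (0.17 ± 0.13), Cdca8 (0.18 ± 0.10) and Mad2l1 (0.16 ± 0.09). The inner kinetochore gene Cenph was at -0.01 ± 0.12.

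The single times differed in how many genes passed. In fresh liver none of the 38 did in limma's test at the adjusted threshold, with 0.614% of all genes called. At an unadjusted p under 0.05 there were 10, and 34 of the 38 were positive, with a median of 0.18. These counts are descriptions with no share of all genes beside them. With array weights 2 passed. Every Rb1KO array lay above every WT array for 5 of the 38 (Cdc25c, Birc5, Kif11, Tpx2 and Top2a), against 3.5% of all genes. Tpx2 signal was 4161, 4151 and 4653 in the 3 WT arrays and 5181 to 5751 (median 5412.5) in the 5 Rb1KO arrays, a log2 change of 0.33 ± 0.10 with adjusted p = 0.28 in limma. Cdk1 was 6356, 6441 and 6864 in WT and 6576 to 7952 (median 7639) in Rb1KO. The 2 groups overlapped for Cdk1 through the array of Rb1KO replicate 5.

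After 24 h, 4 of 38 passed as higher and none as lower in limma, where 7.77% of all genes passed in either direction, 4.2% as higher and 3.56% as lower. They were Cdk1 (0.66 ± 0.13, adjusted p = 0.00274), Nusap1 (0.99 ± 0.20, adjusted p = 0.00323), Tpx2 (0.57 ± 0.12, adjusted p = 0.00481) and Ndc80 (1.22 ± 0.35, adjusted p = 0.0347). Cdk1 signal was 7328 and 6365 in WT and 9828, 9864, 10459 and 13301 in Rb1KO. Nusap1 was 7756 and 7436 in WT and 13207, 14382, 15001 and 18352 in Rb1KO. For both genes every Rb1KO array was above both WT arrays, as it was for 12 of the 38 against 12.3% of all genes. With the mean over its probe sets the change of Tpx2 was 0.15 and did not pass (adjusted p = 0.60 in limma, the highest of its 18 other settings, which ran down to 0.00168). None of the 4 passed without WT replicate 2, and 7 passed without the 4 arrays with the lowest correlations.

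At 48 h the median log2 change was 0.58, against -0.09 for all genes. Of 38, 14 passed as higher and none as lower in limma, where 10.4% of all genes passed in either direction, 7.48% as higher and 2.93% as lower. All 14 were among the 19 above. The arrays labelled Rb1KO both lay above both WT arrays for 31 of 38, against 23% of all genes. The 7 exceptions were Plk1, Cdc20, Ube2c, Espl1, Incenp, Cenph and the microtubule depolymerase gene Kif2c. The count was 8 without WT replicate 2, 7 without Rb1KO replicate 2, 23 without the 4 arrays with the lowest correlations and 2 (Cdk1 and Tpx2) with Y-positive arrays left out, which leaves 1 Rb1KO array at this time. With Y-linked signal as a term in the fit it was 13. The 4 arrays with the lowest correlations were picked among the 0 h and 24 h arrays only, at median correlations of 0.938 to 0.953. At 48 h Rb1KO replicate 2 (0.943) and WT replicate 2 (0.945) had the lowest values. Leaving out the 4 picked arrays alters the spread that the groups share and no signal at 48 h.

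Cdk1 signal at 48 h was 3440 and 3296 in WT, 3971 in p107KO, 7285 and 7233 in the arrays labelled Rb1KO and 8840 in that labelled DKO. For Rb1KO against WT this was a 2.15-fold difference (log2 1.10 ± 0.15, adjusted p = 2.95e-05 in limma), and it passed under all 16 other settings. Tpx2 was 2466 and 2639 in WT, 2981 in p107KO, 6444 and 6019 in Rb1KO and 7332 in DKO, a 2.42-fold difference between Rb1KO and WT (log2 1.28 ± 0.14, adjusted p = 1.79e-06). In both genes the WT and p107KO arrays formed the low end and the Rb1KO and DKO arrays the high end, with no overlap. The mean over Tpx2's probe sets gave a log2 change of 0.41 that did not pass (adjusted p = 0.13 in limma, the highest of its 16 other settings, which ran down to 7.63e-07).

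The largest difference at 48 h was in Ndc80, the kinetochore's microtubule-binding subunit, at 552.1 and 337.6 in WT, 673.5 in p107KO, 1404 and 2172 in Rb1KO and 2575 in DKO (3.83-fold for Rb1KO against WT, log2 1.94 ± 0.40, adjusted p = 0.00235 in limma). The motor gene Kif11 was 1046 and 1147 in WT, 1215 in p107KO, 2500 and 2471 in Rb1KO and 3846 in DKO (2.23-fold, log2 1.16 ± 0.23, adjusted p = 0.00143). Its Rb1KO arrays lay above all 3 arrays with intact Rb1 and below the DKO array. Kif18a, a motor that dampens chromosome movement, was at log2 1.51 ± 0.44 and Kif4 at 1.15 ± 0.29. The checkpoint kinase-like gene Bub1b was 1599 and 945.2 in WT and 2318 and 2274 in Rb1KO (log2 0.88 ± 0.19, adjusted p = 0.00352). By contrast Cdc20 was 10531 and 9324 in WT, 10568 in p107KO, 9324 and 10853 in Rb1KO and 11640 in DKO. Its WT and Rb1KO arrays interleaved, and the 95% interval of its log2 change at 48 h ran from -0.30 to 0.35.

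The other genes that passed at 48 h had log2 changes of 0.57 to 0.99, and their WT and Rb1KO arrays did not overlap. Top2a was 9045 and 8502 in WT, 15351 and 15668 in Rb1KO and 21950 in DKO (log2 0.82 ± 0.18 for Rb1KO against WT). Aurka was 2597 and 2473 in WT, 4507 and 4434 in Rb1KO and 6077 in DKO (0.81 ± 0.16), and Birc5 5664 and 7343, then 10676 and 10814, and 13233 (0.73 ± 0.17). In these 3 genes the order from WT through Rb1KO to DKO was the same. Cdc25c was 503.0 and 397.2 in WT, 839.9 and 889.4 in Rb1KO and 1096 in DKO (0.90 ± 0.17), and Spc25 was 2847 and 2514, 4510 and 6334, and 6806 (0.99 ± 0.28). Cenpa had the smallest change of the 14, at 0.57 ± 0.15. Foxm1, at 367.4 and 285.7 in WT and 665.5 and 666.2 in Rb1KO, did not overlap either but did not pass (0.97, adjusted p = 0.11 in limma), and nor did Cenpf (1.21, adjusted p = 0.084).

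Ndc80 shows how the groups moved over time. In fresh cells its WT arrays read 543.9, 503.5 and 1017, and its Rb1KO arrays 604.3 to 1344 (median 742.4), with overlap. At 24 h WT was at 1474 and 977.0 and Rb1KO at 2696, 2708, 2890 and 3073, and the single DKO array was at 4196. At 48 h the WT arrays were back at 552.1 and 337.6, whereas the arrays labelled Rb1KO, at 1404 and 2172, had dropped below their 24 h range but not to the fresh median.

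**Figure D3:**
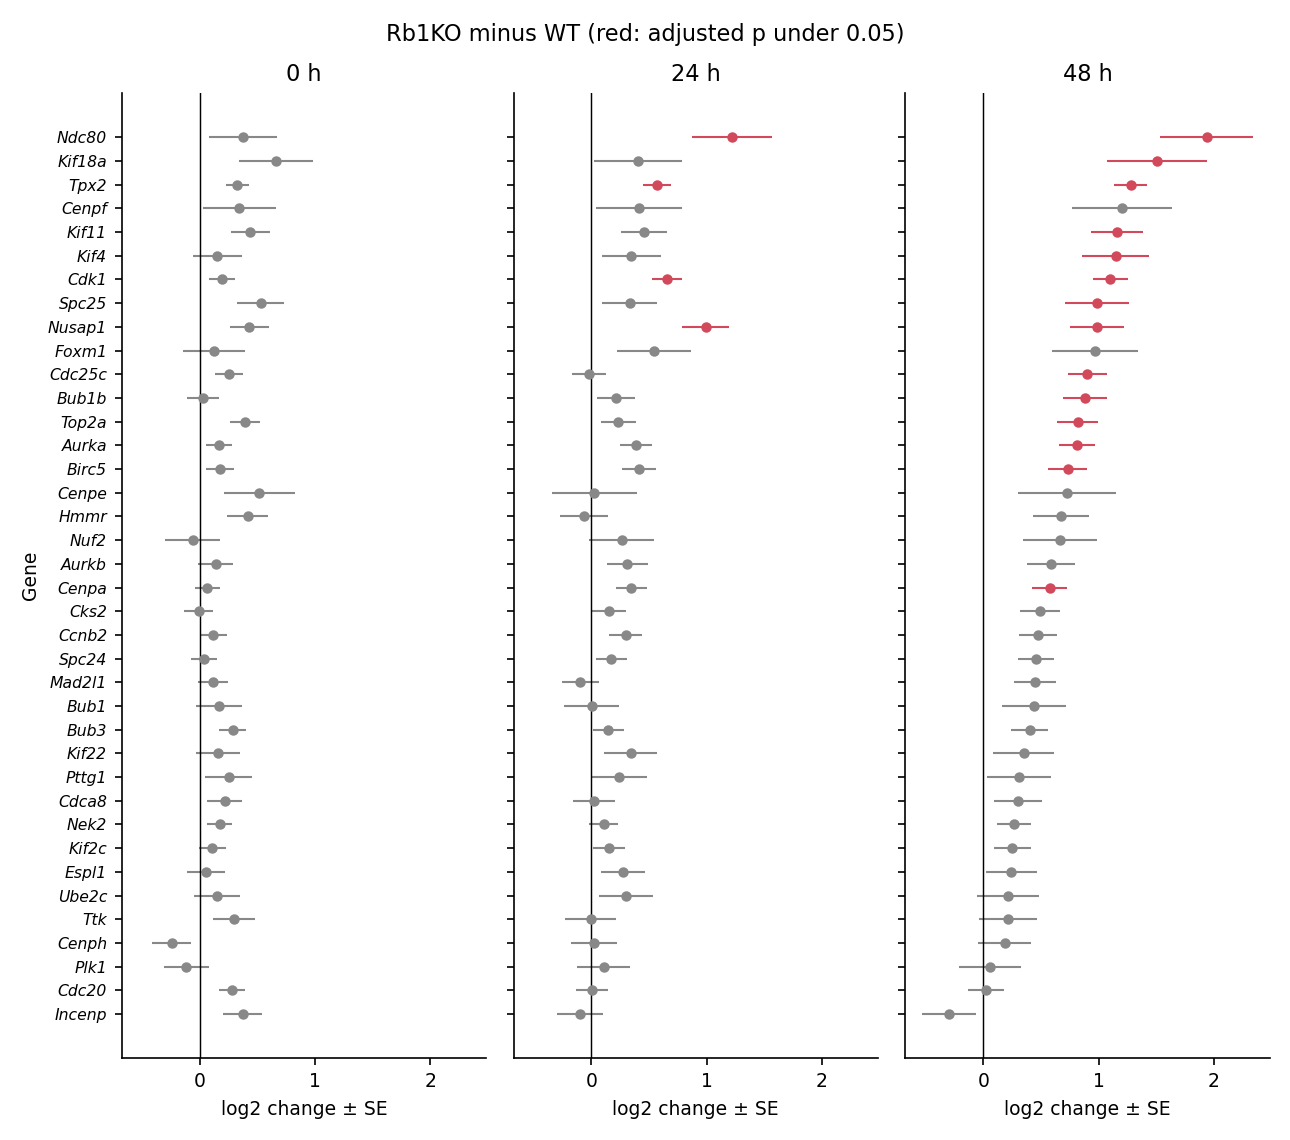
Log2 change of Rb1KO against WT (x axis; points, with bars of 1 SE from the fit over all arrays) for 38 mitotic genes (y axis, ordered by the change at 48 h) at 0 h, 24 h and 48 h; red points passed at an adjusted p under 0.05. None passed at 0 h, 4 at 24 h and 14 at 48 h, while Plk1 and Cdc20 stay near 0 in the panel for 48 h.

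Whether the difference itself grew was tested as an interaction. From 0 h to 48 h the Rb1KO minus WT difference was larger at 48 h in 35 of 38 genes. The increase passed in 3 in limma, against 3.53% of all genes in either direction, 2.68% as an increase and 0.843% as a decrease: Tpx2 by 0.95 ± 0.17 (log2, adjusted p = 0.00263), Cdk1 by 0.91 ± 0.19 (adjusted p = 0.00609) and Bub1b by 0.85. None of the 3 passed with Y-positive arrays left out, 8 genes did without the 4 arrays with the lowest correlations, the call for Tpx2 was lost with the mean over its probe sets, and that for Bub1b under 18 of 24 other settings. From 24 h to 48 h the difference was larger at 48 h in 33 of 38 and its change passed in none, against 0.0458% of all genes. At an unadjusted p under 0.05, 8 of the 38 did, a count with no share of all genes beside it. Growth of the difference was thus called for 3 genes over the whole 48 h and for none over the second day alone.

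Over the time in culture the mitotic genes went first up and then down. In WT, 13 of 38 rose from 0 h to 24 h and none fell, against 38.1% of all genes passing in either direction, 15.3% as higher and 22.8% as lower. The median log2 change was 0.35. The largest was the kinetochore motor gene Cenpe, at 366.2, 466.7 and 414.8 in fresh WT and 1769 and 1566 at 24 h (log2 1.93 ± 0.39, adjusted p = 0.000411 in limma). Spc25 rose by 1.04 ± 0.25 and Cenpf by 1.27 ± 0.40. In Rb1KO, 25 of 38 rose, against 52.2% of all genes in either direction, 20.7% as higher and 31.5% as lower, with a median of 0.39, and 12 of the 13 WT genes were among them. Over the same day all 12 hepatoblast markers fell in both genotypes (median log2 -6.70 in WT and -6.45 in Rb1KO), and the erythroid markers rose as given above, with medians above those of the mitotic genes. The part of these shifts in the rise of the mitotic genes was not tested. This first-day rise depends on the probe set: other probe sets of the called genes had the same sign in 12 of 22 cases in WT and 16 of 26 in Rb1KO, and with the mean over probe sets 6 of 38 passed in WT. Leaving out WT replicate 1 at 24 h left 3. Quantile normalization moved the median change of all genes from -0.09 to 0.05 in WT and to 0.04 in Rb1KO, and the medians of the mitotic genes to 0.17 and 0.24.

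From 24 h to 48 h every one of the 38 genes had a lower mean in WT and in Rb1KO. In WT 29 passed as lower in limma, against 12.1% of all genes as lower and 13.4% as higher (25.4% in either direction), with a median log2 change of -0.97 against 0.03 for all genes. The largest fall was in Cdc25c, the phosphatase that switches Cdk1 on, from 1601 and 1558 to 503.0 and 397.2 (log2 -1.75 ± 0.17, adjusted p = 8.22e-07). Kif4 fell by 1.64 ± 0.29, Spc25 by 1.51 ± 0.28 and the checkpoint protein gene Mad2l1 by 1.38 ± 0.18 on the log2 scale. All 5 checkpoint genes passed, as did 7 of 8 genes of mitotic entry, 5 of 8 of the kinetochore and 2 of 4 of sister separation, Cdc20 (-0.82 ± 0.16) and Espl1 (-0.89 ± 0.22). The 32 other probe sets of these 29 genes with a mean signal over 100 all had the same sign. Nusap1, at 7756 and 7436 at 24 h and 5739 and 7764 at 48 h, did not pass, and its arrays of the 2 times overlapped.

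In Rb1KO 23 genes passed as lower over the same day, against 7.56% of all genes as lower and 13.5% as higher (21.1% in either direction), all of them among the 29, with a median of -0.62. The 6 that passed in WT alone were Bub1, Bub1b, Kif11, Kif18a, Ndc80 and Top2a; as given above, the difference between the 2 genotypes' falls passed for no gene. Top2a was 15908 and 14423 in WT at 24 h and 9045 and 8502 at 48 h, and 13484, 18075, 20065 and 20629 in Rb1KO at 24 h against 15351 and 15668 at 48 h. Its WT times did not overlap, while both Rb1KO arrays at 48 h lay within the range of the 4 at 24 h. Cdk1 fell in both, by 1.01 ± 0.15 in WT and 0.57 ± 0.13 in Rb1KO, and Plk1 by 0.84 ± 0.27 and 0.88 ± 0.23 on the log2 scale. Leaving out Rb1KO replicate 1 at 48 h brought the Rb1KO count to 10. In both genotypes the megakaryocyte and macrophage markers rose over this day, and in WT 4 of 12 hepatoblast markers did, against none in Rb1KO. Erythroid markers fell in 3 of 9 tested in WT and 4 of 9 in Rb1KO. The part of these changes in the fall of the mitotic genes was not tested.

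**Figure D4:**
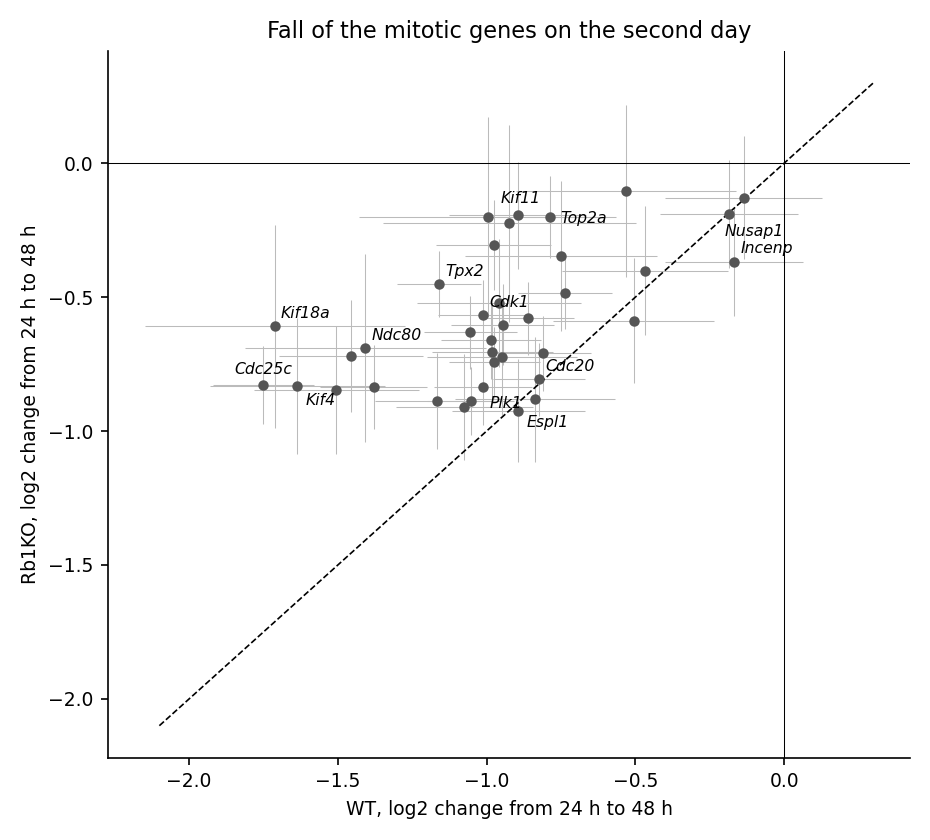
Log2 change from 24 h to 48 h in WT (x axis) and in Rb1KO (y axis) for 38 mitotic genes; points are genes with bars of 1 SE, and the dashed line marks equal change. All points lie below 0 on both axes, and 33 of 38 lie above the line, with the larger fall in WT; Plk1, Cdc20 and Espl1 lie close to it.

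Measured from fresh cells to 48 h, the ratio of mean signals had a median over the 38 genes of 0.665 in WT, 0.762 in p107KO, 0.878 in Rb1KO and 1.09 in DKO. In WT 33 of 38 were below their fresh level at 48 h, in p107KO 30, in Rb1KO 29 and in DKO 13. These ratios were taken for the mitotic genes only, so whether the order of the genotypes is particular to them was not tested. The lowest ratio in WT was that of Cdc25c (0.373) and the highest that of Cenpe (2.09). In DKO the highest was that of Cenpf, a kinetochore protein, at 5.0. The p107KO and DKO values at 48 h rest on 1 array each.

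**Figure D5:**
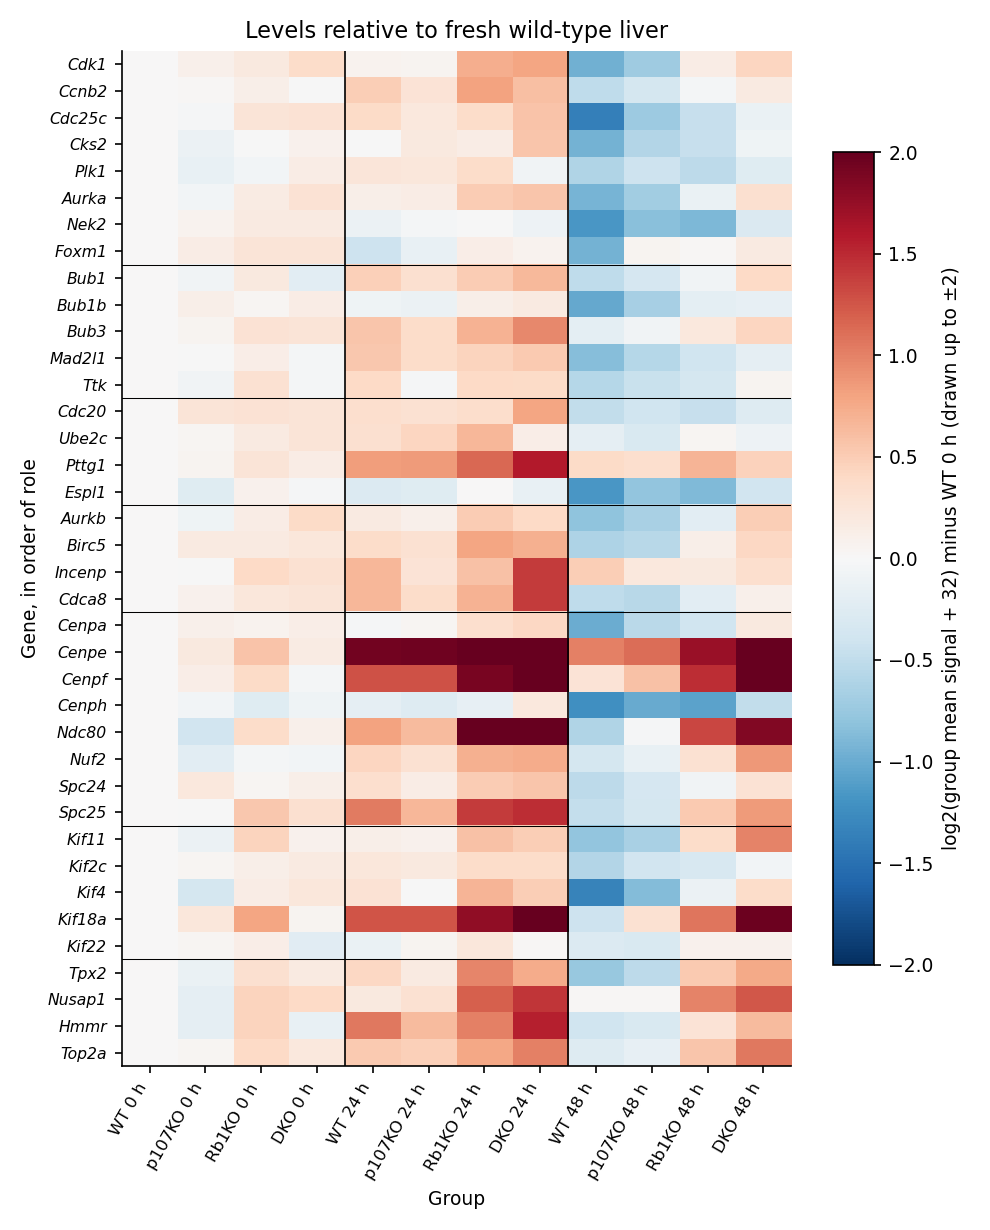
Level of each of 38 mitotic genes (y axis, grouped by role) in the 12 groups (x axis), as log2(group mean signal + 32) minus the value in fresh WT; red is higher, blue lower, and colours end at ±2. WT at 48 h is blue for most genes, with a median ratio to fresh WT of 0.665, and DKO at 48 h is red for 27 of 38, with a median ratio to fresh WT of 1.26; Cenpe, at 2.09 times its fresh level in WT at 48 h, is among the few red cells of that column.

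Loss of p107 alone was called for no mitotic gene over the 3 times in limma, against 0.0183% of all genes (2 genes, one of them Rbl1). The median log2 change was 0.02, and 2 genes, Cenpa (0.20 ± 0.09) and Foxm1 (0.47 ± 0.23), had an unadjusted p under 0.05. At 48 h the single p107KO array lay above both WT arrays for 28 of 38 genes, against 39.7% of all genes, and below both Rb1KO arrays for 29, against 29.8% of all genes, a description of 1 array without a test. In fresh liver DKO against WT gave none, against 0.183% of all genes, with 2 at an unadjusted p under 0.05: Cdk1, at 8298 and 8582 in DKO against 6356 to 6864 in WT, and Aurkb, the kinase of the passenger complex. With array weights 1 gene passed there. Both fresh DKO arrays carried Y-linked signal and no fresh WT array did, so genotype and that signal cannot be told apart between these arrays.

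Loss of Rb1 on a p107-null background gave 16 of 38 genes higher and none lower (limma, DKO against p107KO over the 3 times), against 7.13% of all genes in either direction, 4.49% as higher and 2.64% as lower. All 38 changes were positive, with a median of 0.43. This comparison shares no array with Rb1KO against WT, though both use 1 estimate of the spread. In both, 14 genes passed, 14 of 19 there and 14 of 16 here. How many of all genes passed in both was not counted, so whether this overlap is particular to the mitotic genes was not tested. Ndc80 (1.46 ± 0.29), Nusap1 (0.98 ± 0.16), Spc25 (0.78 ± 0.20), Kif4 (0.77 ± 0.21) and Kif11 (0.75 ± 0.16) had the largest changes among the 16, and Cdk1 was at 0.72 ± 0.11. The passenger complex subunit gene Cdca8 (0.62 ± 0.15) and the hyaluronan-mediated motility receptor gene Hmmr (0.64 ± 0.17), a spindle protein, passed here and not in Rb1KO against WT. The count rests on groups of 1 array. It was 4 without the 48 h arrays (again Cdk1, Ndc80, Nusap1 and Tpx2), 5 without the p107KO or without the DKO array at 48 h and 7 without the DKO array at 24 h. Leaving out the only array of a group also drops that time, so these counts are for the mean over the times left. Every DKO array carried Y-linked signal, against 2 of 5 p107KO arrays, and with that signal as a term 11 passed. Of 12 hepatoblast markers 5 were lower in DKO than in p107KO, and the part of this in the mitotic genes was not tested.

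Loss of p107 on an Rb1-null background gave none of 38 over the 3 times, against 0.999% of all genes. Of the 38, 34 were positive, with a median of 0.16, and 8 had an unadjusted p under 0.05. No share of all genes is set beside these counts, which are descriptions. With array weights 3 passed. The changes ran from -0.18 (Kif22) to 0.37 (Cenph, adjusted p = 0.20 in limma). At 48 h the single DKO array lay above both Rb1KO arrays for 35 of 38, against 37.8% of all genes, with Ube2c, Pttg1 and Kif22 as the exceptions. Cenpa, for example, was 2855 and 3746 in Rb1KO and 5034 in DKO, and Aurkb 2439 and 2982 against 4445. With 1 array these differences at 48 h have no test of their own.

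Other cell cycle genes were read beside them. Of 61 other mitotic genes tested, 30 rose in Rb1KO against WT over the 3 times and none fell (median log2 0.38). Over all genes tested 10.4% passed as higher and 8.66% as lower. The 30 were led by the anaphase-promoting complex inhibitor gene Fbxo5 at 1.41 ± 0.13, with the centromere gene Cenpl at 1.09, the kinesin gene Kif18b at 0.94 and the cohesin protector gene Sgo1 at 0.86. At 48 h 25 rose, against 7.48% of all genes as higher, and 35 fell in WT from 24 h to 48 h, against 12.1% as lower. Of 35 G1/S genes, 28 rose at 48 h with a median of 1.09, against 0.58 for the 38 mitotic genes; Slbp, which binds histone mRNA, was at 1.95 ± 0.15 and the checkpoint mediator gene Clspn at 1.86 ± 0.18. In DKO against Rb1KO the medians were -0.01 for the G1/S genes and 0.16 for the mitotic genes, and no gene of either list passed. Of 10 genes for MuvB and its partners, 6 rose over the 3 times, among them Mybl2, which encodes B-MYB (0.82), Lin54, the CHR-binding subunit (0.67), Lin9 (0.64) and the histone-binding subunit gene Rbbp4 (0.62). The difference between these lists was not tested.

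The promoters were set beside Rb1KO against WT over the 3 times. Of 21 tested mitotic genes with the CHR letters within 50 bases of the start, 12 rose (median 0.33). Of 11 with a promoter window but no such letters there, 3 rose (median 0.27), against 10.4% of all genes tested. Tpx2, Foxm1, Cdc25c and Aurkb also rose but had no promoter window, so they are in neither class. From 24 h to 48 h in WT, 18 of 21 and 7 of 11 fell, with medians of -0.97 and -0.95, against 12.1% of all genes. In DKO against p107KO 11 of 21 and 2 of 11 rose, against 4.49% of all genes. Cdc20 and Ube2c, with the letters at -18 and -29, and Cdk1, with them at -71 and -15, share a CHR match close to the start. Their 48 h values for Rb1KO against WT were 0.02, 0.22 and 1.10 on the log2 scale. Nusap1, with none of the letters in its window, was at 13321 and 13223 in Rb1KO against 5739 and 7764 in WT at 48 h (log2 0.99 ± 0.23, adjusted p = 0.00642 in limma). These counts are descriptions over few genes, and the single genes are examples picked with their values known. Whether the CHR letters go with the change in Rb1KO was not tested.

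Genes with more than 1 probe set allow a check within the array. Of 21 other probe sets, with a mean signal over 100, of the 19 genes higher in Rb1KO over the 3 times, 21 had the same sign. At 24 h it was 2 of 3, with Tpx2 the exception, at 48 h 11 of 12, with Aurka the exception, and in DKO against p107KO 19 of 21, with Aurka and Cenpa the exceptions. For Aurka the mean over probe sets gave a log2 change of 0.39 at 48 h that did not pass (adjusted p = 0.56 in limma, the highest of 16 other settings, which ran down to 0.000224), against 0.81 ± 0.16 for the brightest. In the marker lists, Rb1KO against WT over the 3 times gave 1 erythroid marker higher and 1 lower of 9 tested (median 0.03) and 6 of 7 megakaryocyte markers lower (median -0.54). At 48 h 3 of 12 hepatoblast markers were lower (median -1.42). Of 7 tested stem and progenitor markers all had negative values and 2 passed as lower (median -0.27), and their summed signal separated the genotypes at every time. It was 4595 to 6166 in WT against 3148 to 4415 in Rb1KO at 0 h, 8803 and 10460 against 3994 to 6397 at 24 h, and 14201 and 21086 against 6944 and 7589 at 48 h. DKO arrays likewise lay below the p107KO arrays, at 4188 and 4621 against 5450 and 5711, 5350 against 8033 and 10690, and 6772 against 14143. Most of this sum was 1 gene, Mllt3, at 13267 in WT and 4292 in Rb1KO at 48 h, picked out after its values were seen, while Cd34 was at 646.5 and 539.9. Among the other lists, 1 of 11 macrophage and 1 of 5 mast cell markers were lower, and none of 8 granulocyte, 6 endothelial or 6 stroma markers passed in limma, with 1 granulocyte marker at an unadjusted p under 0.05. Their part in the difference of the mitotic genes was not tested.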

How the data were processed

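Total RNA was hybridised to 27 Affymetrix mouse arrays, 1 sample each. The deposited values are linear signal intensities per probe set, made by the authors with MAS5 in GCOS 1.4, per the submitters' processing notes; they are already scaled, with trimmed means of 491.9 to 497.7. Of 45037 probe sets, 34945 had 1 gene symbol, 932 several and 9160 none in the platform annotation; 34741 matched GRCm38.p6 genes by Entrez identifier. Each gene was taken from the probe set with the highest mean intensity, as log2(intensity + 32), so changes of low genes are understated. Intensities of different genes were not compared.

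limma 3.58.1 (R 4.3.3; lmFit, eBayes with trend) was fitted to 12 group means over all 27 arrays (15 residual and 7.14 prior degrees of freedom), and p-values were adjusted by Benjamini-Hochberg over 10916 genes, with a threshold of 0.05. A comparison over the 3 times is the mean of the differences at 0, 24 and 48 h. Where leaving out arrays emptied a group, its time was dropped from that mean. The number of arrays limits the precision. Counts at an unadjusted p under 0.05 and counts of positive or negative changes are descriptions, given without the share of all genes.

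The mitotic genes, the other lists, the markers and the tests were chosen with earlier results of these data known. Every mitotic gene could be named; from each other list, up to 4 genes with the smallest adjusted p in Rb1KO against WT over the 3 times; markers are named as examples. Alternatives covered the pseudocount, the filter on low values, quantile normalization, the mean over probe sets, array weights, the groups fitted, the replicate number as a block and each array left out; those without the 4 arrays of lowest correlation among those at 0 h and 24 h, without Y-positive arrays or with Y-linked signal as a term were added after seeing the data. The fit was tested on simulated data. Plots used Python 3.11.15 and matplotlib 3.10.9.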

Additional observations from a re-analysis of the deposited data

Results flagged for a closer look

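In Rb1KO 0 h replicate 5, one of the 4 arrays of lowest correlation among those at 0 h and 24 h, 5 mitotic genes stood apart from the other 4 arrays of their group. Cenpe was at a signal of 1069.4 against 464.2 to 561.8, Cenpf at 1949.3 against 981.6 to 1236.8, Kif18a at 1269.0 against 412.0 to 578.7 and Hmmr at 6513.7 against 3359.7 to 4057.6, while Cdk1 was lower, at 6575.8 against 7601.2 to 7951.9. In Rb1KO 24 h replicate 1 Pttg1 was at 66711.3 against 29583.2 to 35137.2. In all, 76 gene-by-group sets of 4 or 5 arrays were examined and 6 had such an array, where chance alone gives about 1 in 20.

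The change of the Rb1KO minus WT difference between 0 h and 48 h passed for 3 genes by an interaction term in limma. It was 0.95 for Tpx2, 0.91 for Cdk1 and 0.85 for Bub1b on the log2 scale. Over all genes tested 3.53% passed in either direction, 2.68% as an increase. The call for Bub1b was lost under 18 of 24 other settings, and that for Tpx2 with the mean over its probe sets.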

How the results depend on the processing

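Counts are of the 38 mitotic genes passing an adjusted p of 0.05 in limma. Left out one at a time, the arrays gave 13 to 22 for Rb1KO against WT over the 3 times, 0 to 6 at 24 h, 7 to 15 at 48 h, 2 to 3 for the change from 0 h to 48 h, 5 to 17 for DKO against p107KO, 3 to 14 for WT from 0 h to 24 h, 24 to 27 for WT from 24 h to 48 h, 18 to 23 for Rb1KO from 0 h to 24 h and 10 to 26 for Rb1KO from 24 h to 48 h. For DKO against p107KO, leaving out the only array of a group also drops that time from the comparison. Without the 48 h arrays the counts were 4 for Rb1KO against WT and 4 for DKO against p107KO. With Y-positive arrays left out they were 10 over the 3 times, 2 at 48 h, 0 for the change from 0 h to 48 h and 14 for Rb1KO from 24 h to 48 h. Without the 4 arrays of lowest correlation they were 7 at 24 h, 23 at 48 h and 8 for the change from 0 h to 48 h. These 4 were picked among the 0 h and 24 h arrays only. Array weights gave 2 for Rb1KO against WT and 1 for DKO against WT at 0 h and 3 for DKO against Rb1KO. Fitting only the groups compared gave 2 at 24 h, 20 for WT from 0 h to 24 h and 15 for Rb1KO from 24 h to 48 h, and the mean over probe sets 6 for WT from 0 h to 24 h. The cause was not tested.

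With the replicate number as a block the counts were 18 over the 3 times, 3 at 24 h, 17 at 48 h, 18 for DKO against p107KO, 29 for WT and 22 for Rb1KO from 24 h to 48 h. Over 60 pairs of same-numbered arrays, deviations from group means correlated at -0.163 to 0.211 (median 0.02). Over 139 pairs with different numbers they correlated at -0.283 to 0.298 (median -0.013). In small groups the deviations of the arrays depend on each other, so these values cannot decide whether same-numbered arrays share an origin.

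Of single-gene calls under other settings, 2527 held, 385 were lost and 5 reversed, all for 0 h to 24 h: with the mean over probe sets, Bub3 in WT (-0.38) and in Rb1KO (-0.40), Top2a in WT (-0.14) and Aurka in Rb1KO (-1.24), and under quantile normalization Ube2c in Rb1KO (-0.031).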
